A study of Homo sapiens with 4 samples.

Results

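The mammalian circadian clock is a transcriptional loop that most cells carry, and 10 of its genes are described here across the 4 libraries of the series: CLOCK, PER1, PER2, PER3, CRY1, CRY2, NR1D1, NR1D2, DBP and TEF. They were chosen by name, without use of their measured values, as the rows whose Ensembl IDs carry these symbols, and all 10 of 10 were found among the 58051 genes of each count file. Earlier results of these data were known when the choice was made. A549 is an established human lung carcinoma cell line. Every library came from A549 cells in which a gene for A-FOS had been inserted with piggyBac, and A-FOS is a dominant-negative FOS that pairs with JUN proteins and keeps them off DNA. The plus Dox group is 2 libraries of cells given 1 µg/mL doxycycline, which switches A-FOS on. The minus Dox group is 2 libraries of the same engineered cells with no treatment. The sample titles speak of a knock-in while the design text says the insertion was random. Neither says whether the cells were a clone or a pool, how long doxycycline was given, at what hour cells were harvested or whether their clocks had been set to a common phase. No library without the A-FOS gene and no library of doxycycline alone was compared, so doxycycline and A-FOS cannot be told apart. Whether replicates came from separate cultures is not stated either, so all p-values measure only the spread between these samples.

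In the clock, CLOCK pairs with BMAL1 (gene symbol ARNTL) on E-box DNA and drives the PER and CRY genes, whose proteins return to the nucleus and repress that pair. A second loop runs through the nuclear receptors REV-ERB alpha (NR1D1) and REV-ERB beta (NR1D2), which are E-box targets themselves and repress ARNTL. DBP and TEF are PAR bZIP factors, members of the leucine zipper class to which FOS and JUN also belong, and they activate genes with D-box DNA. PER1 is also known as an early response gene in many cell types, and BHLHE40 and NFIL3 feed into the loop at E-boxes and D-boxes.

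Total counts were 32727539 and 31104964 in the plus Dox libraries and 36377784 and 40526912 in the minus Dox libraries, and levels below are CPM, counts scaled to a common library total, adjusted by edgeR's TMM method. As a check of induction, the FOS row, which can hold reads of the A-FOS gene too, had 48.6 and 50.9 CPM in plus Dox and 1.36 and 1.52 CPM in minus Dox. Of markers of simple epithelium all 5 were present, with summed levels of 5764.5 to 5955.5 CPM in plus Dox and 8172.4 to 8315.6 CPM in minus Dox. Most of these sums came from KRT8 and KRT18. KRT19 had 20.9 and 21.2 CPM in plus Dox and 122 and 121 CPM in minus Dox (edgeR adjusted p = 3.26e-29). EPCAM had 1.90 and 2.32 CPM in plus Dox and 3.43 and 3.54 CPM in minus Dox. CDH1 had means of 34.95 CPM in plus Dox and 38.4 CPM in minus Dox (edgeR adjusted p = 0.0815). Of 7 alveolar type II markers 5 were under 1 CPM in every library, with SFTPA1 at 0 throughout and the transporter ABCA3 at a mean of 87.3 CPM in plus Dox and 120.2 CPM in minus Dox. LAMP3, the other marker of that list above 1 CPM in any library, went the other way, with 2.75 and 1.61 CPM in plus Dox and 0.384 and 0.720 CPM in minus Dox (edgeR adjusted p = 9.19e-06). The 6 fibroblast markers summed to 39.7 and 41.4 CPM in plus Dox and 42.9 and 49.5 CPM in minus Dox, mostly from COL1A1, with COL1A2 and DCN at 0 or 1 count per library. Lists of 4 endothelial and 5 leukocyte markers, with CD3E at 0 throughout, summed to 0.805 to 1.48 CPM in plus Dox and 1.54 to 2.69 CPM in minus Dox. Against these lower sums the endothelial VWF had 17 and 22 counts in plus Dox and 3 and 0 counts in minus Dox (edgeR adjusted p = 0.000206), and the leukocyte PTPRC had 8 and 4 counts in plus Dox and 0 in each minus Dox library. The part of these shifts in any clock gene result was not tested. In bulk libraries fewer cells of a kind and less RNA per cell cannot be told apart.

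With TMM scaling 4 of the 10 clock genes rose and 2 fell with doxycycline. Library size only in edgeR gave 7 higher and 0 lower, where 43.6% and 16.2% of all tested genes were called. DESeq2 gave 4 higher and 0 lower, where 23.6% and 24.2% of all tested genes were called. At an unadjusted p under 0.05 the lower counts were 0 with library size only and 1 in DESeq2. NR1D2 rose 1.98-fold, CLOCK 1.74-fold, TEF 1.59-fold and PER1 1.495-fold, while PER2 fell to 0.797 and NR1D1 to 0.836 of their minus Dox levels. The changes of PER3, CRY1, CRY2 and DBP did not pass the threshold. Counted over the list, 4 of 10 members were called higher, where 28.4% of all 18046 tested genes were, and 2 of 10 were called lower, where 28.4% of all tested genes were. A call is an adjusted p under 0.05 in edgeR's quasi-likelihood test, adjusted by the Benjamini-Hochberg method across the whole tested set. Together 6 of 10 members were called against a background of 56.9%, so the count alone does not set these genes apart from the rest. All 10 passed the filter on low counts. The 2 groups' libraries did not overlap in 9 of 10 members, against 77.0% of all tested genes. The members' median log2 fold change was 0.21 and their median absolute change 0.30, beside 0.00 and 0.36 over all tested genes.

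**Figure D1:**
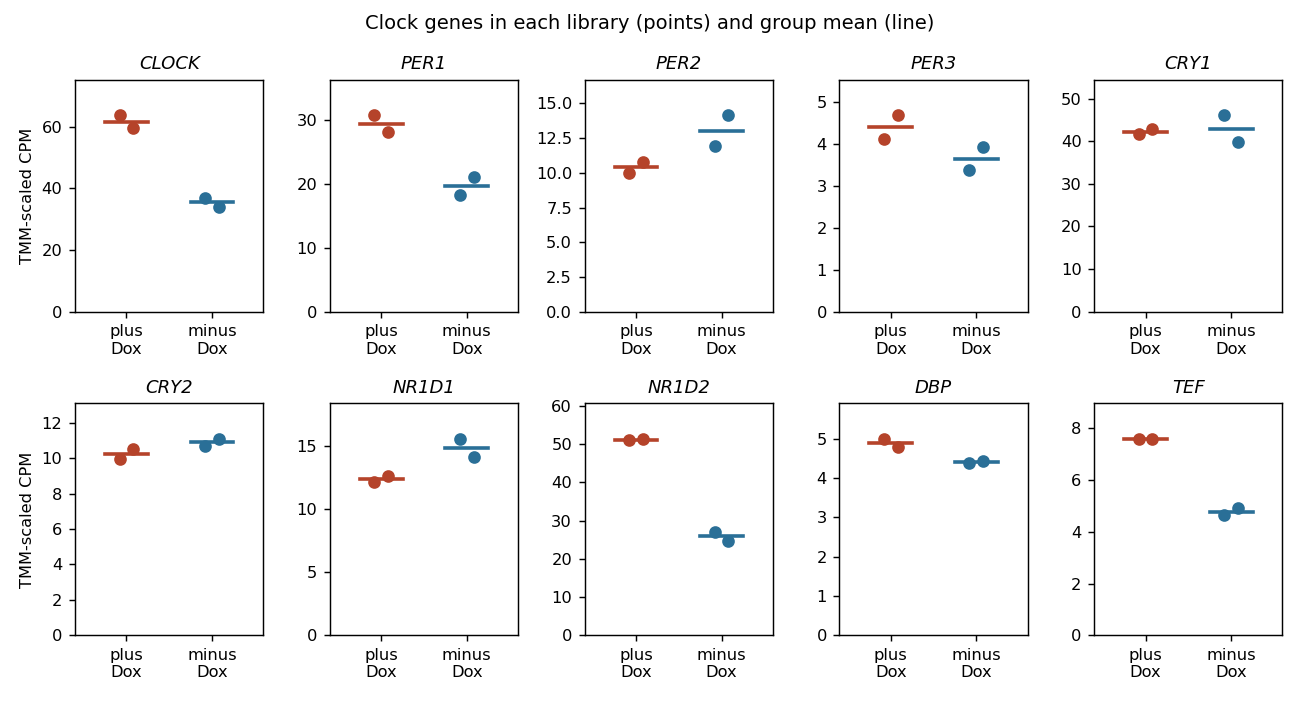
TMM-scaled CPM (vertical axes, each from 0) of the 10 clock genes in each library, with plus Dox on the left and minus Dox on the right of each panel; points are libraries and lines are group means. NR1D2, CLOCK, TEF and PER1 lie clearly higher in plus Dox, and only CRY1 has overlapping groups.

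The promoters of the 6 members that passed are shown because the clock's own loops act through E-boxes and D-boxes near these starts. Each line gives 280 bases, from 250 before the annotated start onward, 5′ to 3′ on the gene's own strand, from RefSeq in GRCh38.p14, the same assembly as the hg38 build named in the submitters' processing notes. Capitals mark an E-box (CACGTG), an E′-box (CACGTT, or AACGTG on the other strand) or a D-box (TTATGTAA or TTACGTAA, with TTACATAA on the other strand). For CLOCK, NR1D2 and TEF, which have 2 starts each in the table, the start whose window holds a match is given, and for TEF, where both do, the first.
NR1D2, chr3:23945871-23946150, plus strand: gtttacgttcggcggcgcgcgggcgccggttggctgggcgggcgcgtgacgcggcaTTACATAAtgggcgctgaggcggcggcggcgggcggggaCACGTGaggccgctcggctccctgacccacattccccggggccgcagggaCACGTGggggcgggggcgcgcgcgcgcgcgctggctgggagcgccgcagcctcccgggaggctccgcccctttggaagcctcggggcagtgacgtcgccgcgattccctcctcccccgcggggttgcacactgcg
CLOCK, chr4:55545903-55546182, minus strand: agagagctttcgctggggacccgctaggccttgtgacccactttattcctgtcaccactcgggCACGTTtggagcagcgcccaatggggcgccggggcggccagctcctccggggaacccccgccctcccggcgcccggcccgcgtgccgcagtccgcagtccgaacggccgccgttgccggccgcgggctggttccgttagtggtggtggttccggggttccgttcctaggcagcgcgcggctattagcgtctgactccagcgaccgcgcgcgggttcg
TEF, chr22:41367205-41367484, plus strand: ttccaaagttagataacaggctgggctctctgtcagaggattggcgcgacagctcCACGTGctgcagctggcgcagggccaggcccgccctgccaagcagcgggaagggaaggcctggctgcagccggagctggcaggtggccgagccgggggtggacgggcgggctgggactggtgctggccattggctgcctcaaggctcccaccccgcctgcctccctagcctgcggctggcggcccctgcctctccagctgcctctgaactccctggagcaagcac
PER1, chr17:8152375-8152654, minus strand: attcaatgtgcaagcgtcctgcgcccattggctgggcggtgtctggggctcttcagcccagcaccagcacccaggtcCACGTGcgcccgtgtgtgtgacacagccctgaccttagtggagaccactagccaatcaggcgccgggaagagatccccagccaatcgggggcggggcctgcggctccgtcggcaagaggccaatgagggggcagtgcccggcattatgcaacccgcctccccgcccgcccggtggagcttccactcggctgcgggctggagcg
PER2, chr2:238288581-238288860, minus strand: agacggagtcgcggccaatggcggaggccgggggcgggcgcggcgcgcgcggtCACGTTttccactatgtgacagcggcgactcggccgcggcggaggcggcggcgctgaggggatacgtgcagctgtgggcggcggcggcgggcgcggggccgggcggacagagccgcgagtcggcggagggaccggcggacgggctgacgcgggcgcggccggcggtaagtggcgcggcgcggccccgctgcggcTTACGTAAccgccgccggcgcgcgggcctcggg
NR1D1, chr17:40100560-40100839, minus strand: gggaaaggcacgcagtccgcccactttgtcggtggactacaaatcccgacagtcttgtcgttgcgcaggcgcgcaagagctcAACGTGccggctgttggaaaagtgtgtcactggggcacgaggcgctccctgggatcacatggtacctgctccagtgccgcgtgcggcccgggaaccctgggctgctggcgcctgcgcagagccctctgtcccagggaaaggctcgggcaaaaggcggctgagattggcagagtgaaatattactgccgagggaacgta

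NR1D2, which rose most, holds 2 E-boxes and a D-box in this window. PER1 and TEF, which also rose, hold an E-box each. PER2 and NR1D1, which fell, hold an E′-box each, as does CLOCK, which rose, and PER2 has a D-box across its start. Among members that did not pass, CRY1 and CRY2 hold an E′-box each and PER3 a D-box. The windows at the first starts of NR1D2 and CLOCK hold no match. A link between motif and direction of change was not tested. All 10 members were found in the RefSeq table, with 15 windows of 250 bases before to 50 after a start, and both strands were searched. E-boxes were in 4 of these 15 windows (3 genes, TEF with 2 windows), where 7.26% of all 35116 windows in the table hold one. E′-boxes were in 5 of 15 windows (5 genes), against 5.34% of all windows. D-boxes were in 3 of 15 (NR1D2, PER2 and PER3), against 1.01% of all windows. AP-1 sites (TGANTCA), the DNA that FOS and JUN dimers bind, and cyclic AMP response elements (TGACGTCA) were in 0 of the 15 windows, against 7.71% and 1.85% of all windows. No match overlapped another. Windows of the same gene are not independent, and the shares over all windows were not matched for GC content. A match describes the letters only, and the absence of one says that these letters are not in these windows. DBP had no match of any of these motifs.

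**Figure D2:**
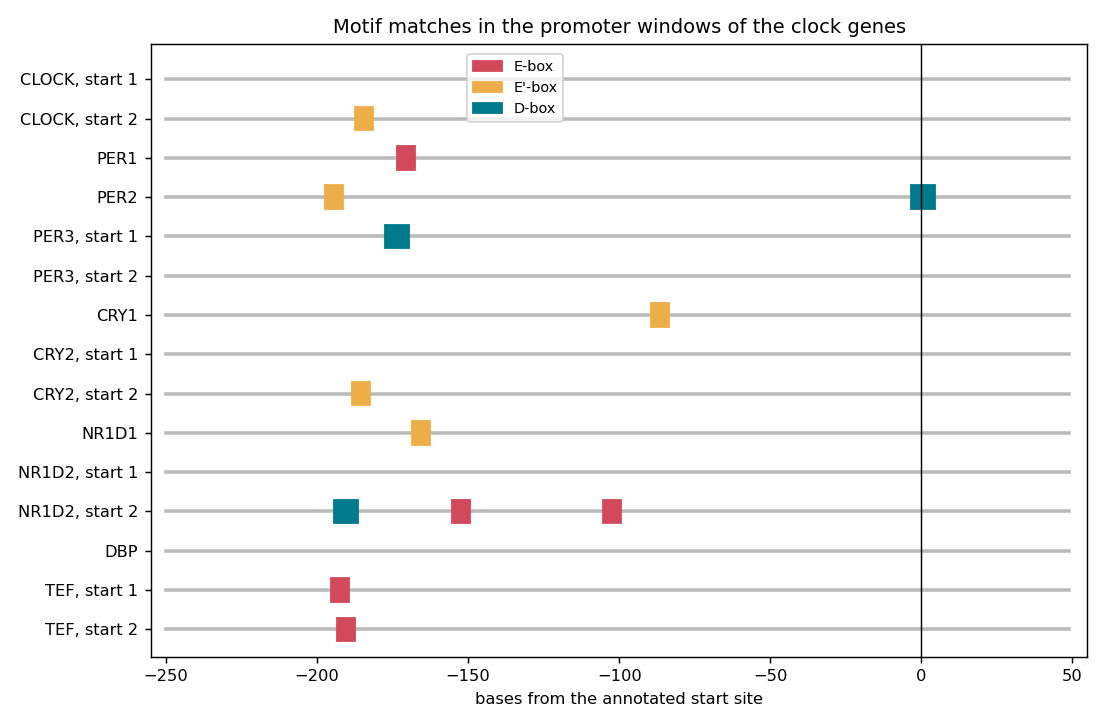
Positions of E-box, E′-box and D-box matches (coloured blocks) in bases from the annotated start (horizontal axis, from 250 before to 50 after) for each promoter window of the 10 clock genes (rows). The second NR1D2 start carries 3 matches, and DBP none.

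CLOCK encodes the activator that binds E-boxes together with BMAL1. Its gene (ENSG00000134852) lies on chromosome 4, 55427903 to 55547138 on the minus strand in GENCODE 29 (hg38), with 26 merged exons. It had 63.7 and 59.5 CPM in plus Dox and 37.0 and 33.8 CPM in minus Dox. Both plus Dox libraries stood far above both minus Dox libraries, a log2 fold change of 0.80 (SE 0.06; edgeR adjusted p = 2.03e-13). That change was larger in size than those of 79.7% of tested genes. After a fitted trend of fold change on GC content, gene length and abundance was subtracted it came to 0.39 on the log2 scale, and it still passed.

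The 3 PER genes encode the PERIOD repressors, and they did not move together. PER1 (ENSG00000179094), on chromosome 17 (8140472 to 8156506, minus strand), had 30.7 and 28.1 CPM in plus Dox and 18.3 and 21.0 CPM in minus Dox, with no overlap. Its log2 fold change was 0.58 (SE 0.08), with an edgeR adjusted p of 1.45e-07. PER2 (ENSG00000132326), on chromosome 2 (238244038 to 238290102, minus strand), had 10.0 and 10.8 CPM in plus Dox and 11.9 and 14.2 CPM in minus Dox. The plus Dox libraries lay below, but the nearest pair of libraries was close, and the 2 minus Dox libraries differed more from each other than the plus Dox ones. PER2's log2 fold change was −0.33 (SE 0.11), with an edgeR adjusted p of 0.00951. That call was lost with library size only (−0.11, edgeR adjusted p = 0.387), in DESeq2 (adjusted p = 0.0656), without minus Dox replicate 2 (edgeR adjusted p = 0.169) and without plus Dox replicate 1 (0.0952). PER3 (ENSG00000049246), on chromosome 1 (7784320 to 7845177, plus strand), had 4.12 and 4.68 CPM in plus Dox and 3.37 and 3.92 CPM in minus Dox. The groups did not overlap, yet the log2 fold change of 0.27 had a 95% interval from −0.08 to 0.61 and did not pass (edgeR adjusted p = 0.184). PER3 rested on 114 to 157 counts per library, and 16.7% of its exon bases lie opposite other genes. Of these, UTS2 was at 0 counts in every library and Z98884.1 at or under 0.179 CPM.

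The balance of PER1 and PER2 within a library differed between the groups. Ratios of counts per kilobase of exon within a library do not depend on how libraries are scaled against each other. The PER2 to PER1 ratio was 0.332 and 0.391 in plus Dox and 0.664 and 0.685 in minus Dox. PER1 was thus the higher of the pair in all 4 libraries, and by a wider margin with doxycycline. The PER3 to PER1 ratio was 0.116 and 0.144 in plus Dox and 0.159 and 0.161 in minus Dox. With 2 libraries a group an exact two-sided permutation test cannot go below p = 0.333, so these ratios carry no test.

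CRY1 and CRY2 encode the cryptochromes, the strongest repressors of the CLOCK and BMAL1 pair, and neither passed. CRY1 (ENSG00000008405), on chromosome 12 (106991364 to 107093829, minus strand), had 41.6 and 42.9 CPM in plus Dox and 46.1 and 39.8 CPM in minus Dox. It was the member whose groups overlapped, with both plus Dox values between the 2 minus Dox values. Its log2 fold change was −0.02 (95% interval −0.16 to 0.11, edgeR adjusted p = 0.794). The CRY1 value turned with the treatment of the counts. It was 0.19 (edgeR adjusted p = 0.0130) with library size only, a scaling under which all tested genes had a median of 0.22, and −0.46 (4.36e-07) once that trend was subtracted. CRY2 (ENSG00000121671), on chromosome 11 (45847118 to 45883248, plus strand), had 9.93 and 10.5 CPM in plus Dox and 10.7 and 11.1 CPM in minus Dox. Its plus Dox libraries lay just below the others, with a log2 fold change of −0.09 (95% interval −0.31 to 0.13, edgeR adjusted p = 0.492), and it was 0.12 with library size only. The CRY1 to CRY2 ratio per kilobase of exon was 5.13 and 4.99 in plus Dox and 5.28 and 4.40 in minus Dox, so these groups overlapped too.

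Of the paralogous REV-ERB genes NR1D2 rose and NR1D1 fell, the second by a small change that did not hold under every setting. NR1D2 (ENSG00000174738), on chromosome 3 (23945260 to 23980618, plus strand), had 51.0 and 51.4 CPM in plus Dox and 27.1 and 24.7 CPM in minus Dox. The plus Dox libraries nearly coincided and stood far above the others, a log2 fold change of 0.99 (SE 0.07; edgeR adjusted p = 4.90e-15). This was the largest change among the 10 members, larger in size than those of 85.4% of tested genes, and it was 0.65 after subtraction of that trend. NR1D1 (ENSG00000126368), on chromosome 17 (40092787 to 40100725, minus strand), had 12.1 and 12.6 CPM in plus Dox and 15.5 and 14.1 CPM in minus Dox. Its groups did not overlap, and the log2 fold change was −0.26 (SE 0.10) with an edgeR adjusted p of 0.0236. The NR1D1 call was lost with library size only (−0.0431, edgeR adjusted p = 0.733), in DESeq2 (adjusted p = 0.109), with the trend subtracted (edgeR adjusted p = 0.102) and when plus Dox replicate 1 (0.152), plus Dox replicate 2 (0.0590) or minus Dox replicate 1 (0.129) was left out. On the opposite strand 9.49% of the NR1D1 exon bases lie in THRA, a thyroid hormone receptor gene, and the strand setting of the counting is not given in the sources used here. THRA had 95.3 and 95.8 CPM in plus Dox and 100.1 and 110.1 CPM in minus Dox, a log2 fold change of −0.14 (edgeR adjusted p = 0.0166). Its part in the NR1D1 count was not tested.

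Within a library the order of the REV-ERB genes turned over. The NR1D2 to NR1D1 ratio per kilobase of exon was 2.00 and 1.94 in plus Dox and 0.831 and 0.833 in minus Dox. NR1D2 was the higher of the pair in both plus Dox libraries and the lower in both minus Dox libraries. Scaled by the length of the principal transcript in place of the merged exons, the group means of the ratio were 2.18 in plus Dox and 0.921 in minus Dox.

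**Figure D3:**
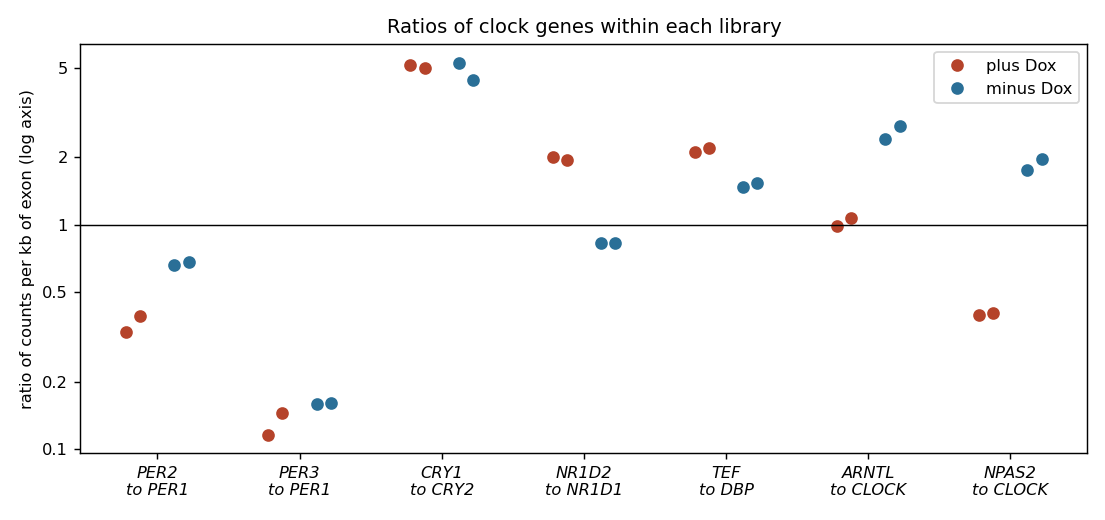
Ratio of counts per kilobase of exon between pairs of clock genes within each library (log axis), with plus Dox on the left and minus Dox on the right of each pair; each point is a library and the line marks equal levels. NR1D2 to NR1D1 lies above the line in plus Dox (1.94 or more) and below it in minus Dox (at most 0.833), and NPAS2 to CLOCK lies the other way round.

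Of DBP and TEF, the PAR bZIP activators of D-box genes, TEF rose and DBP did not pass. TEF (ENSG00000167074), on chromosome 22 (41367333 to 41399326, plus strand), had 7.58 and 7.57 CPM in plus Dox and 4.64 and 4.90 CPM in minus Dox. Its plus Dox libraries were almost equal and both well above the others, a log2 fold change of 0.67 (SE 0.14; edgeR adjusted p = 8.91e-05). DBP, in mouse liver known for one of the steepest daily rhythms of any transcript, is ENSG00000105516, on chromosome 19 (48630030 to 48637438, minus strand). It had 5.00 and 4.80 CPM in plus Dox and 4.37 and 4.42 CPM in minus Dox. The groups did not overlap, but with 148 to 176 counts per library the log2 fold change of 0.15 had a 95% interval from −0.16 to 0.47 and did not pass (edgeR adjusted p = 0.416). SPHK2, a sphingosine kinase gene, lies opposite 10.1% of DBP's exon bases, and it had 35.3 and 34.9 CPM in plus Dox and 40.9 and 39.2 CPM in minus Dox. The TEF to DBP ratio per kilobase of exon was 2.106 and 2.19 in plus Dox and 1.47 and 1.54 in minus Dox. Which of the pair is higher depends on the length used: per kilobase of principal transcript the mean ratio was 0.785 in plus Dox and 0.550 in minus Dox. The merged exons of DBP are 6544 bases long and its principal transcript 2229.

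Levels can be compared between genes only per length. On the scale of CPM per kilobase of merged exon, NR1D2 (8.80 ± 0.05) and CRY1 (8.35 ± 0.18) were highest in plus Dox and PER3 was lowest (0.543 ± 0.049; SD, n = 2 for all levels here). CLOCK followed at 5.24 ± 0.26, then NR1D1 at 4.47 ± 0.13 and PER1 at 4.20 ± 0.27, which did not differ beyond their spread. CRY2 (1.65 ± 0.07) and TEF (1.61) did not differ beyond CRY2's spread, PER2 followed at 1.51 ± 0.08, and DBP was at 0.748. In minus Dox the order opened with CRY1 at 8.49 ± 0.88, NR1D1 at 5.35 ± 0.37 and NR1D2 at 4.45 ± 0.30. CLOCK (3.01 ± 0.19) and PER1 (2.81 ± 0.28) did not differ beyond their spread in minus Dox, nor did PER2 (1.89 ± 0.23) and CRY2 (1.76 ± 0.04). TEF, DBP and PER3 closed the order at 1.01, 0.672 and 0.450. Among all tested genes with a length, 21.4% lay below PER3 and 70.9% below NR1D2 in plus Dox, and 19.5% below PER3 and 70.4% below CRY1 in minus Dox. By principal transcript CRY1 came first in plus Dox (12.9, with NR1D2 at 9.74) and in minus Dox (13.2, with NR1D1 at 5.35). Other places in the order moved as well. On that scale PER1 was at 6.25 and CLOCK at 5.98 in plus Dox, and at 4.17 and 3.44 in minus Dox. DBP was at 2.20 and TEF at 1.72 in plus Dox, and at 1.97 and 1.09 in minus Dox.

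The other clock genes, 22 listed by role, were called lower more often than higher with TMM. Of 19 that passed the filter 5 were called higher, 9 lower and 5 did not pass, beside backgrounds of 28.4% in each direction. Their median log2 fold change was 0.02. With library size only 8 (42.1%) were called higher and 6 (31.6%) lower, beside backgrounds of 43.6% and 16.2%. The genes of CLOCK's partners BMAL1 and BMAL2 (ARNTL and ARNTL2) and its paralog NPAS2 were among the 9 called lower. NPAS2, a close paralog of CLOCK that can take its place beside BMAL1, had 26.8 and 25.6 CPM in plus Dox and 68.8 and 70.4 CPM in minus Dox. Its libraries fell into groups far apart, a log2 fold change of −1.41 (SE 0.06; edgeR adjusted p = 1.75e-20). ARNTL, the gene of BMAL1, had 36.1 and 36.4 CPM in plus Dox and 50.9 and 53.1 CPM in minus Dox, a log2 fold change of −0.52 (edgeR adjusted p = 4.09e-09). Its paralog ARNTL2 fell by 0.22 on the log2 scale, and by 0.005 with library size only (edgeR adjusted p = 0.947).

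With TMM scaling CLOCK rose while its paralog NPAS2 and its partners ARNTL and ARNTL2 fell, and ratios within libraries set these levels beside each other. The ARNTL to CLOCK ratio per kilobase of exon was 0.990 and 1.07 in plus Dox and 2.41 and 2.74 in minus Dox. The NPAS2 to CLOCK ratio, taken after these values were seen, was 0.395 and 0.405 in plus Dox and 1.75 and 1.96 in minus Dox. By principal transcript the mean NPAS2 to CLOCK ratio was 1.09 in plus Dox and 5.06 in minus Dox, so on that scale the NPAS2 mean was not below that of CLOCK in either group. The mean ARNTL to CLOCK ratio was 2.18 in plus Dox and 5.47 in minus Dox on that scale. A change of length scales every library alike and leaves the fold between the groups as it was.

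Among repressors at E-boxes, BHLHE40 (also called DEC1) had 212 and 214 CPM in plus Dox and 392 and 394 CPM in minus Dox. Replicates of each group nearly coincided, and the log2 fold change was −0.88 (SE 0.04, edgeR adjusted p = 5.92e-21). After subtraction of the fitted trend on GC content, length and abundance it was −0.56 and still passed. BHLHE41 (DEC2) fell by 1.69 on the log2 scale (SE 0.50, edgeR adjusted p = 0.00441), on 6 and 12 counts in plus Dox and 27 and 34 counts in minus Dox, and missed without plus Dox replicate 1 (edgeR adjusted p = 0.0970). CIPC, which binds CLOCK and inhibits it, rose, with 35.7 and 37.7 CPM in plus Dox and 27.2 and 29.6 CPM in minus Dox (edgeR adjusted p = 2.97e-05). CIART, a repressor of the same complex, had 19 and 18 counts in plus Dox and 9 and 7 counts in minus Dox and did not pass (edgeR adjusted p = 0.0556).

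NFIL3, the bZIP repressor that competes with DBP and TEF at D-boxes, fell while TEF rose. It had 9.05 and 9.69 CPM in plus Dox and 13.9 and 14.7 CPM in minus Dox, a log2 fold change of −0.61 (SE 0.10, edgeR adjusted p = 4.72e-06). HLF, the third PAR bZIP gene, was near the floor with 6 and 8 counts in plus Dox and 9 and 14 counts in minus Dox, and it was not tested. Of the ROR receptors, which activate at the sites where REV-ERB proteins repress, RORA did not pass with TMM. It had 2.61 and 4.11 CPM in plus Dox and 3.22 and 2.88 CPM in minus Dox. With the fitted trend on GC content, length and abundance subtracted RORA was at −0.50 and passed (edgeR adjusted p = 0.0407). RORB had 5 and 7 counts in plus Dox and 0 in each minus Dox library, where a 0 allows up to 3 counts. It was not tested.

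Genes that act on PER and CRY proteins went both ways. FBXW11, a ligase subunit for PER proteins, had 149 and 147 CPM in plus Dox and 118 and 113 CPM in minus Dox (edgeR adjusted p = 9.98e-09), and its relative BTRC did not pass (log2 fold change 0.14). The deubiquitinase USP2 rose by 0.99 and the kinase GSK3B by 0.18 on the log2 scale. The PER kinases CSNK1D and CSNK1A1 fell by 0.17 each, were at 0.0479 and 0.0492 with library size only, and lost their calls without plus Dox replicate 1 (CSNK1D, edgeR adjusted p = 0.0873) and plus Dox replicate 2 (CSNK1A1, 0.0703), and CSNK1E did not pass at 0.02. On the same strand 37.4% of the CSNK1A1, 21.1% of the CSNK1E and 9.70% of the CIPC exon bases are shared with other genes. On the opposite strand the share is 17.5% for USP2, 16.8% for CSNK1D and 12.9% for FBXL21. The part of these overlaps in the counts was not tested. TIMELESS, whose protein acts at replication forks and whose fly relative is a clock gene, had 175 and 174 CPM in plus Dox and 233 and 240 CPM in minus Dox (edgeR adjusted p = 8.60e-12). FBXL21, a pseudogene by its current symbol, did not pass.

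**Figure D4:**
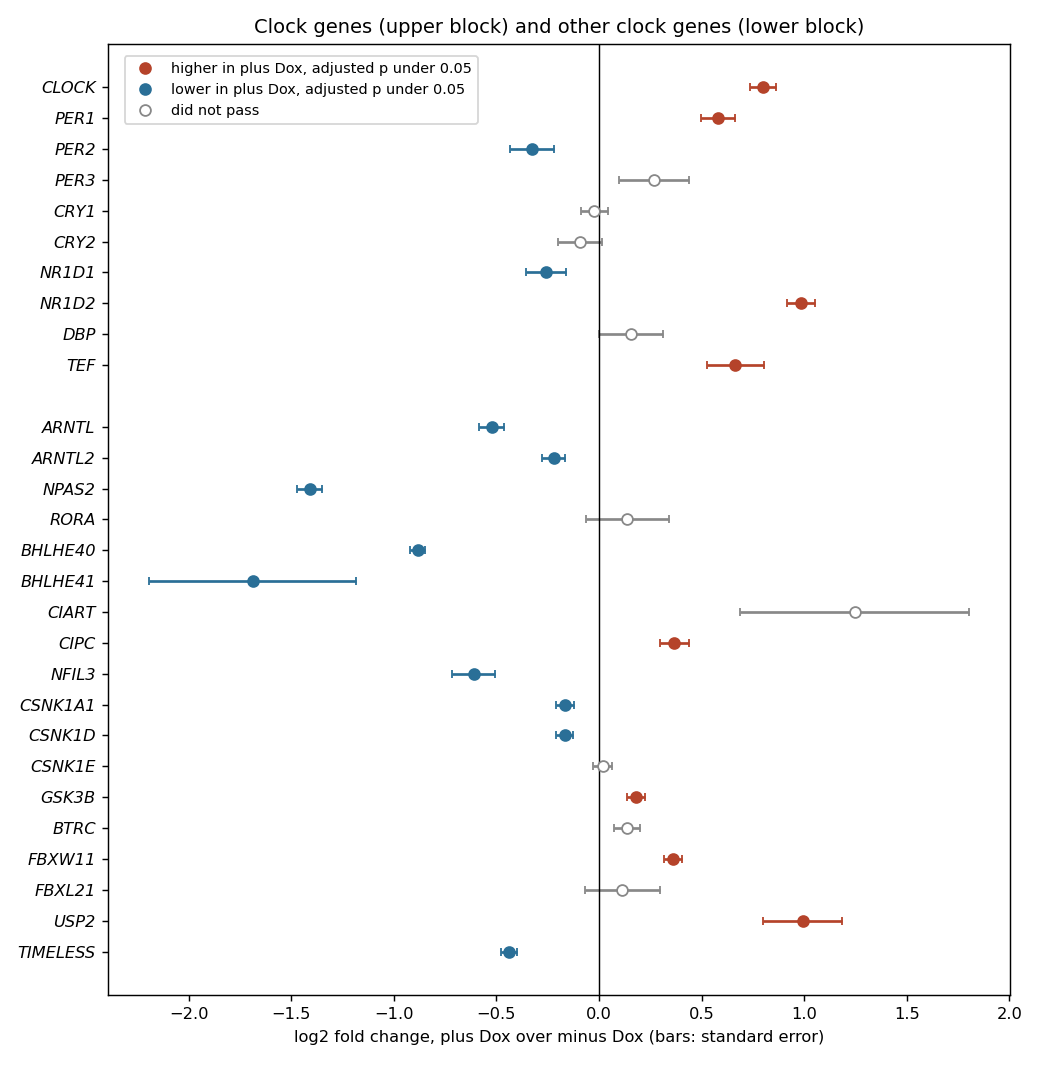
Log2 fold change of plus Dox over minus Dox (horizontal axis; bars are standard errors) for the 10 clock genes (upper block) and 18 other clock genes that were tested (lower block). Filled points passed an adjusted p of 0.05 in edgeR. NR1D2 and CLOCK are the highest of the upper block, while NPAS2 and BHLHE41 are the lowest of the lower block.

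The calls on the 4 members that rose held under all 10 alternative settings tried, and those on the 2 that fell did not. Over these settings NR1D2 ranged from 0.65 to 1.20, CLOCK from 0.39 to 1.02, PER1 from 0.47 to 0.80 and TEF from 0.62 to 0.88 on the log2 scale. PER2 passed in 6 of 10 settings and NR1D1 in 4 of 10. Scaling by library size alone gave 7 members higher and 0 lower in edgeR, also 0 lower at an unadjusted p under 0.05. Over all tested genes it gave 7862 higher and 2927 lower, against 5133 and 5132 with TMM, so 72.9% in place of 50.0% of calls were higher.

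**Figure D5:**
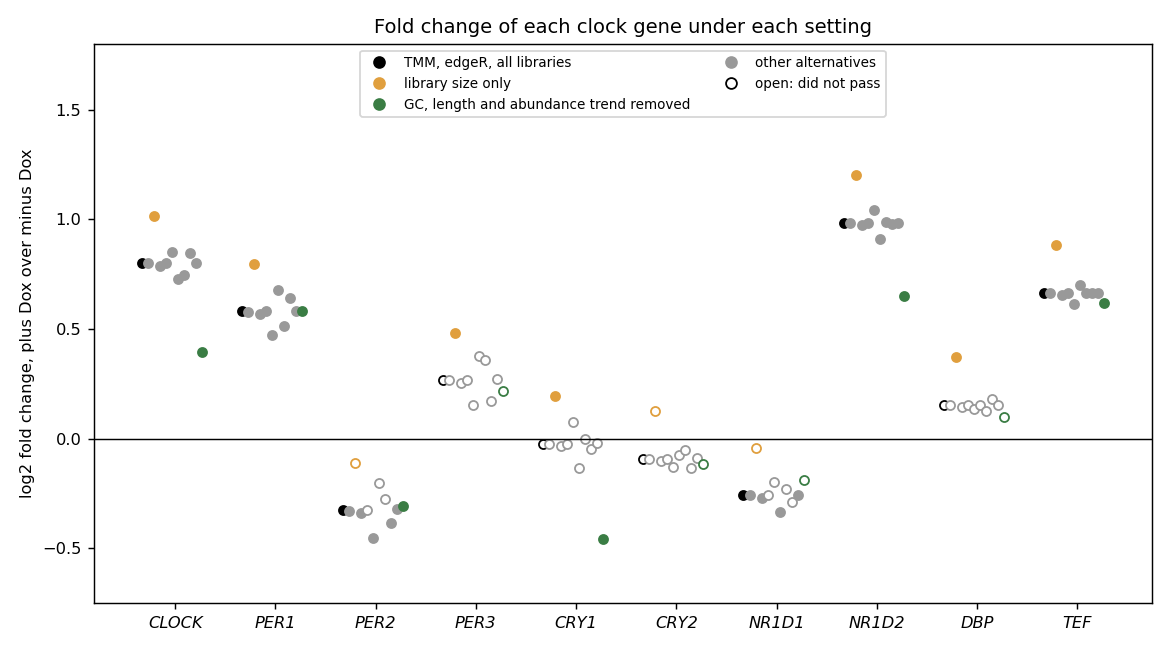
Log2 fold change of plus Dox over minus Dox (vertical axis) for each of the 10 clock genes under the main setting (black) and 10 alternatives; filled points passed an adjusted p of 0.05 and open points did not. NR1D2, CLOCK, PER1 and TEF are filled and above 0 throughout, whereas CRY1 lies at 0.19 with library size only and at −0.46 with the fitted trend subtracted.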

How the data were processed

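Each deposited file gives a library's raw, unnormalized read counts by Ensembl ID, as its header and whole-number values show. The submitters' processing notes name featureCounts 2.0.3, STAR 2.7.10b, DESeq2 2.11.40.7, cutadapt 4.0, DRAGEN and build hg38, in no stated role. The annotation release, the strand setting and the treatment of reads matching several genes were not given in the sources used here. Libraries were stranded and paired-end, per the labels' protocols. IDs were matched to symbols by a gene name table and GENCODE 29, which also gave merged exon lengths, principal transcripts (APPRIS) and overlaps.

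In R 4.3.3, edgeR 4.0.16's filterByExpr at its defaults kept 18046 genes, TMM scaled the libraries (factors 1.08 and 1.08 for plus Dox, 0.930 and 0.926 for minus Dox) and the quasi-likelihood test compared plus Dox with minus Dox with no other term, adjusted by Benjamini-Hochberg over all tested genes. SEs were derived from the F statistic. The pipeline was tested on simulated data. Alternatives were DESeq2's size factors, library size only, no filter, DESeq2 1.42.0, a replicate block, each library left out, and removal of a spline trend of fold change on GC content, exon length and abundance (17974 genes). A count of 0 allows up to 3 counts, 0.0740 to 0.0964 CPM before scaling, for counting error only.

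The clock genes, the lists of other clock genes and of markers, and the tests were chosen with earlier results of these data known. The text names every clock member with its value in every library, and the other clock genes with their change or counts. CPM per library are given for the 8 of these with the lowest adjusted p, and also for RORA. Some of these other genes are counted but not reported here by name, which leaves 7 of the 8.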

Additional observations from a re-analysis of the deposited data

How the results depend on the processing

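The counts of members called higher and lower were 4 and 2 with TMM, 7 and 0 with library size only, 4 and 0 in DESeq2 (1 lower at an unadjusted p under 0.05), and 0 to 1 lower with a library left out. In edgeR, 0 were lower without plus Dox replicate 1 (1 at an unadjusted p under 0.05) and 1 with each of the other 3 left out in turn. Other clock genes called higher were 5 with TMM and 8 with library size only. With library size only the log2 fold changes were −0.11 for PER2, −0.0431 for NR1D1 and −0.0049 for ARNTL2 (no longer past). PER3 was at 0.48, DBP at 0.37, BTRC at 0.35, CSNK1E at 0.23 and CIART at 1.46 (now past). CRY1 at 0.19, CSNK1A1 at 0.0492 and CSNK1D at 0.0479 turned direction. CRY2 at 0.12 turned too, without passing under TMM or library size only. In DESeq2 PER2 was at −0.33 and NR1D1 at −0.26 without passing. After subtraction of the trend on GC, length and abundance NR1D1 was at −0.19 without passing and CRY1 at −0.46 and past. BTRC (0.18), CSNK1E (0.13) and RORA (−0.50, edgeR adjusted p = 0.0407) were past as well. RORA, CSNK1D (0.0660) and FBXL21 (−0.14) turned direction, CSNK1D and FBXL21 without passing. With a library left out PER2 ranged from −0.46 to −0.20 and NR1D1 from −0.34 to −0.20. The cause of these differences was not tested.

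Replicate numbers are shared between groups, but nothing says that they pair the samples, and deviations of the replicate 1 libraries correlated at 0.00226 across genes. With a replicate block 4 members were higher and 2 lower, 10414 genes were called in place of 10265, and the only changed call among the clock genes was BTRC (0.14, edgeR adjusted p = 0.0455).

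Among the members depth limits PER3 and DBP most, and BHLHE41 and CIART rest on fewer counts still. Levels per kilobase depend on the length chosen, among the members most for DBP. The hour of harvest is not given, so these levels say nothing of rhythm or phase.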
